A study of Mus musculus with 12 samples.

Results

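The mitochondrial ribosomal protein genes of mouse choroid plexus are described here across development. They were taken as every gene symbol of the deposited expression table made of Mrpl or Mrps, a number and at most 1 further letter, which gave 78 of 52459 genes. Choroid plexus, a sheet of epithelium on vascular stroma, secretes cerebrospinal fluid. B6 mice gave 3 libraries at each of 4 ages, which are mid-gestation (E12.5, in embryonic days), birth (P0), the age of 14 days (P14) and the adult age of 6 months (A6m). Dissected tissue went directly into Trizol, and RNA from each sample was sequenced as paired ends of 100 bp after a Kapa mRNA kit. The labels name no genotype, allele, treatment or sex for these 12 libraries and no ventricle of origin. Specimens within an age are called independent in the design text, with no word on pooling, so p-values measure the spread between these libraries.

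Mitochondria keep their own ribosome, which translates only the few proteins encoded by mitochondrial DNA, all of them core subunits of the respiratory chain and of ATP synthase. Its rRNAs come from mitochondrial DNA, while all of its proteins are encoded in the nucleus, made in the cytosol and imported. The large subunit (Mrpl genes) joins amino acids, the small subunit (Mrps genes) reads the mRNA, and many proteins of both have no counterpart in bacteria. Choroid plexus epithelium is rich in mitochondria, which supply the ion pumping that drives fluid secretion.

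By role, 17 members encode small subunit proteins with a bacterial counterpart, 9 encode small subunit proteins specific to mitochondria, 31 encode large subunit proteins with a bacterial counterpart and 20 encode large subunit proteins specific to mitochondria. Symbol and subunit differ for Mrps18a and Mrps30, whose proteins sit in the large subunit. Mrps36 carries the family name but encodes a component of the 2-oxoglutarate dehydrogenase complex. All 78 are annotated as protein-coding genes in GENCODE M21 (GRCm38), spread over 17 chromosomes, and all 78 reached the level needed for testing (TPM of at least 1 in at least 3 of 12 libraries).

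Values are TPM, transcript abundances adjusted for length and set to the same total in every library. Sequencing depth cannot be read from TPM and is unknown for each library. Since a few very abundant transcripts took a larger part of that total at later ages, each comparison is given on 2 scales, TPM as deposited and TPM divided by a median-of-ratios factor, which centres the typical gene between libraries. Mitochondrially encoded transcripts took 11.2% to 17.7% of TPM at E12.5 and 31.3% to 34.0% at A6m, and Ttr, the gene of the thyroid hormone carrier transthyretin, 1.12% to 2.10% and 13.7% to 14.6%. The factors ran from 1.21 to 1.55 at E12.5, from 1.12 to 1.2 at P0, from 0.769 to 0.827 at P14 and from 0.734 to 0.805 at A6m. Between E12.5 and A6m the median log2 difference over all 17422 genes tested was -0.71 as deposited and -0.01 after scaling. Scaling thus moved all genes by about the same amount, and the direction of a member is given on both scales. Rose and fell, where no scale is named, mean called the same way on both. How many of all genes were called the same way on both scales was not counted.

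Some libraries and ages differed in ways that touch every result. In E12.5 replicate 1 the small RNA gene Mir6236 made up 9.31% of TPM, while replicates 2 and 3 had 1.79% and 2.05%. Xist, the RNA of the inactive X chromosome, reached 148 to 155 TPM in all A6m libraries but was under 1 TPM at P0 and P14, where the Y-linked Ddx3y stood at 80.1 to 117 TPM, so age and this split cannot be told apart between P14 and A6m. The E12.5 libraries were mixed, since Xist stood at 139 TPM in replicate 1, 0.389 in replicate 2 and 89.5 in replicate 3, where Ddx3y had 9.26, 54.4 and 50.9 TPM. As a group they differed in this from P0 and from A6m, and its part in the E12.5 comparisons was not tested. The 11 epithelial markers summed to 12868 to 23758 TPM at E12.5, 148712 to 150380 at P0, 179899 to 195165 at P14 and 173063 to 179225 at A6m, and none was at 0 in any library. Most of each sum was Ttr. As deposited, 4 of the 11 were called higher and 4 lower at P14 than at P0, beside 5.33% and 53.5% of all genes. At A6m against E12.5, 7 were called higher and 0 lower, beside 15.2% and 62.0% of all genes. After scaling 11 were called higher over that span, beside 35.4% of all genes. The 10 markers of dividing cells summed to 1028 to 1106 TPM at E12.5, 236 to 239 at P0, 92.1 to 102 at P14 and 71.6 to 78.2 at A6m. Summed erythroid markers (10 genes, 1 of them at 0 in an A6m library) went from 55771 to 62822 TPM at E12.5 to 149 to 564 at A6m, endothelial markers (8 genes) from 425 to 466 down to 26.8 to 42.5, fibroblast markers (6 genes) from 1003 to 1337 down to 166 to 237, and macrophage markers (7 genes) from 138 to 178 down to 19.4 to 33.2. Between E12.5 and A6m, 1 fibroblast marker was called higher and 5 lower on each scale. All dividing, erythroid, endothelial and macrophage markers were called lower on each scale. Of all genes, 62.0% were called lower as deposited and 35.8% after scaling. These shifts accompany each age difference below, and their part in it was not tested. In whole tissue, fewer cells of a type and less RNA per cell cannot be told apart.

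The family as a whole took a small part of the transcript pool. Its summed TPM was 3960, 3974 and 4290 in the E12.5 libraries, 3318, 3298 and 3319 at P0, 3064, 2976 and 3279 at P14 and 2938, 2936 and 3103 at A6m, which is 0.407% ± 0.0187 (SD, n = 3) of all TPM at E12.5 and 0.299% ± 0.00957 (SD, n = 3) at A6m. Every E12.5 library lay above every later one. After scaling the sums were 3268, 2720 and 2765 at E12.5, 2924, 2758 and 2973 at P0, 3706, 3869 and 4024 at P14 and 3648, 4001 and 3955 at A6m, so that the order turned and the P14 and A6m libraries all lay above those of the earlier ages. The mean over 3 libraries was highest at E12.5 for 63 of 78 members as deposited, and at P14 or A6m for 26 and 36 members after scaling. The same count was not made over all genes. Their median log2 difference between E12.5 and A6m was -0.71 as deposited and -0.01 after scaling. Some difference among the 4 ages was called for 64 of 78 members as deposited, where 85.1% of all genes tested were called, and for 65 of 78 after scaling, where 79.8% of all genes were called (limma F-test, adjusted p under 0.05).

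**Figure D1:**
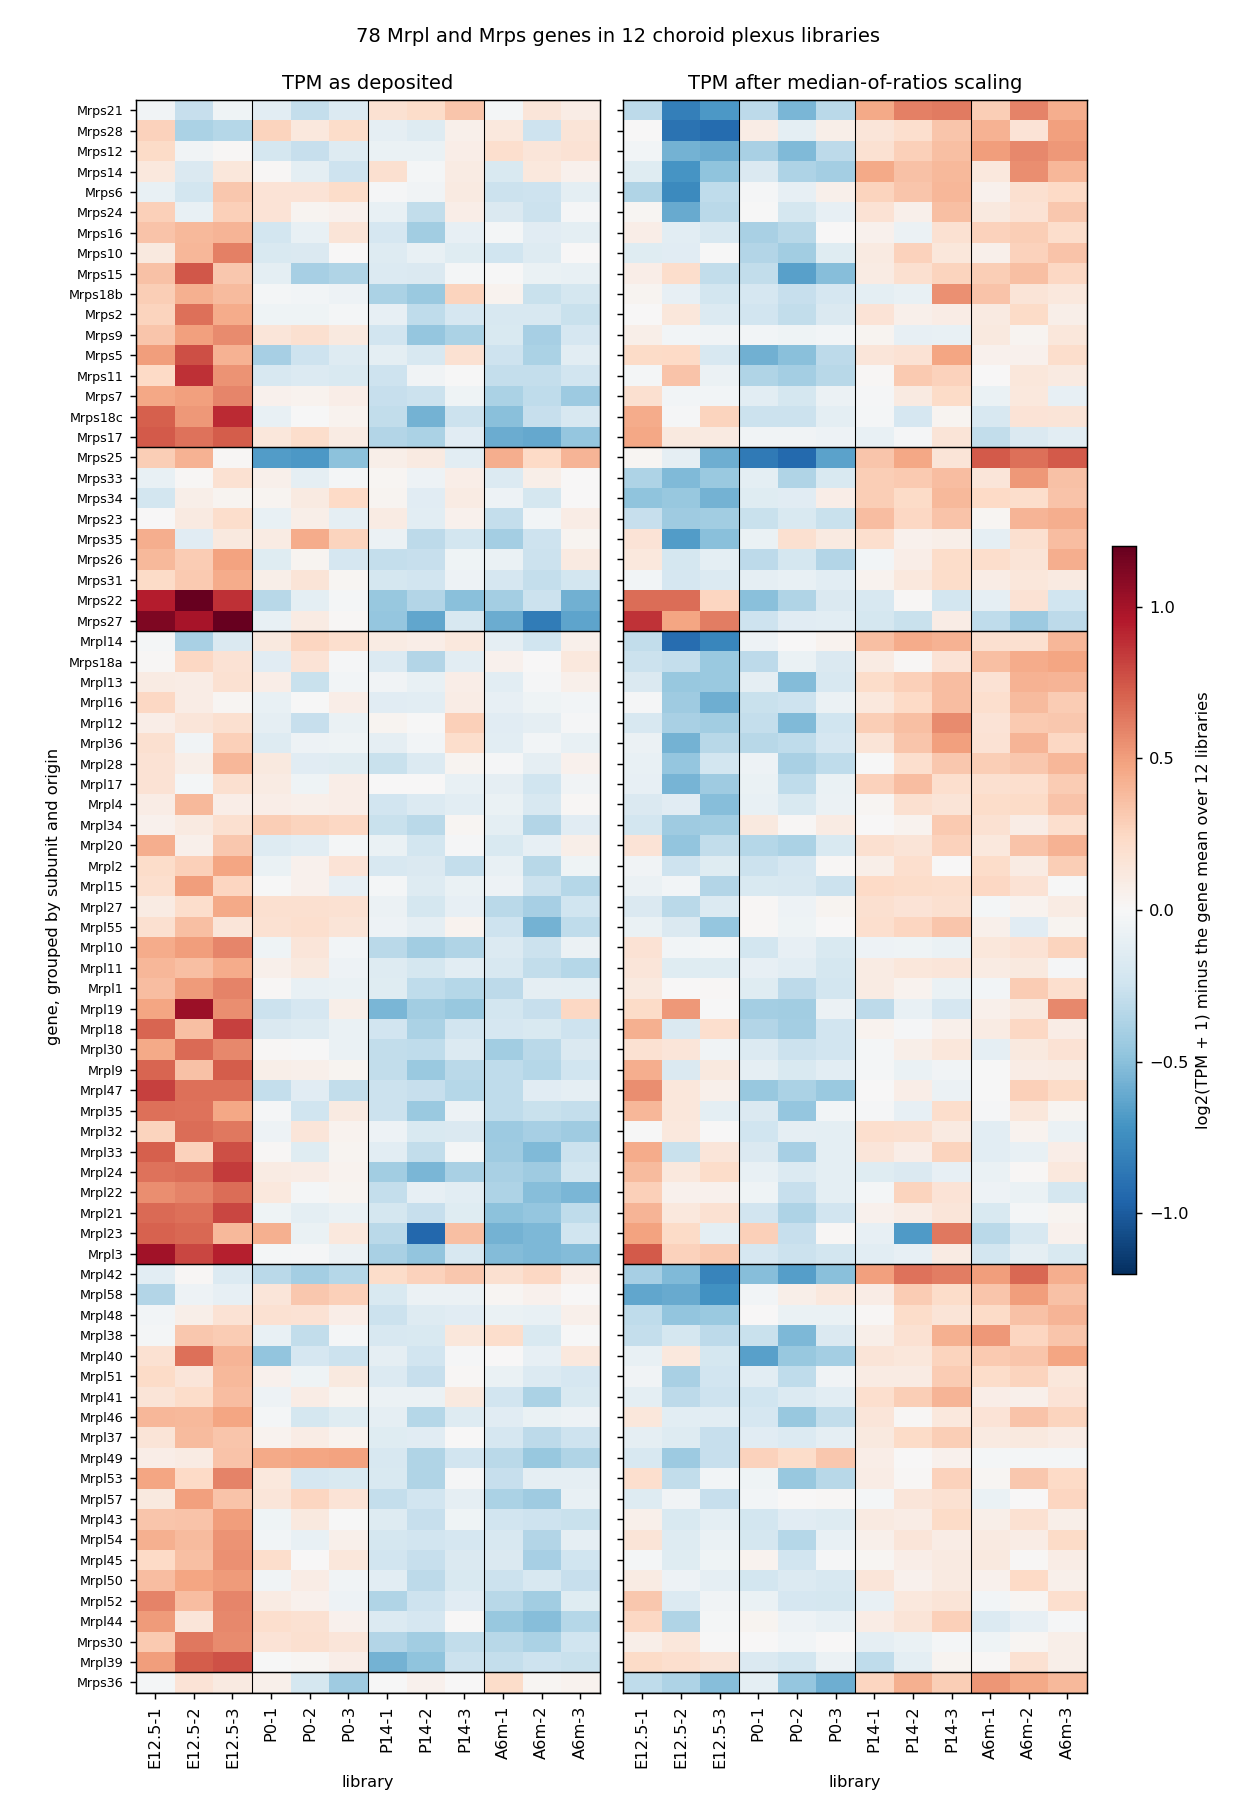
Level of each of the 78 members (rows, grouped from top by small subunit with a bacterial counterpart, small subunit specific to mitochondria, large subunit with a bacterial counterpart, large subunit specific to mitochondria, and Mrps36) in the 12 libraries (columns), as log2(TPM + 1) minus the gene's mean over the libraries, as deposited on the left and after scaling on the right. Red at E12.5 covers most of the left panel, while in the right panel E12.5 stays red only for a minority that includes Mrps27, Mrps22 and Mrpl3.

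Levels between members spanned a wide range. Averaged over the 12 libraries, Mrps21 was the most abundant member at 215 TPM, followed by Mrps6 at 195 TPM, Mrpl42 at 150 TPM and Mrpl58 at 149 TPM, and the least abundant were Mrps30 at 8.65 TPM, Mrpl19 at 7.53 TPM and Mrpl23 at 4.52 TPM. Mrps6, which encodes a small subunit protein with a bacterial counterpart, ranged from 166 to 243 TPM at E12.5, 217 to 225 at P0, 188 to 208 at P14 and 161 to 179 at A6m. Its deposited differences from age to age did not pass the test, with adjusted p from 0.213 to 0.245 between neighbouring ages. After scaling it was called higher at P0 than at E12.5, by 0.46 ± 0.11 (SE; adjusted p 0.00368), and at P14 than at P0, by 0.35 ± 0.11 (adjusted p 0.0237). Mrpl23, whose bacterial relative lies at the exit of the peptide tunnel, stood at 7.49, 7.37 and 5.79 TPM at E12.5 and at 2.5, 2.57 and 3.39 TPM at A6m, with no overlap as deposited. After scaling these ages overlapped, and Mrpl23 was not among the members called lower at A6m on both scales. The processed pseudogene Mrpl23-ps1, which shares sequence with it, was listed at 34.8 to 55.2 TPM, above Mrpl23 itself in every library, and how reads were split between the gene and its copy was not tested.

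From E12.5 to birth most members went down on the deposited scale. Compared with E12.5, 3 of 78 members were called higher and 49 lower at P0 as deposited (limma, adjusted p under 0.05), while 18.6% of all genes tested were called higher and 43.7% lower. After scaling 9 were called higher and 23 lower, against 29.0% and 31% of all genes. The members' median log2 difference was -0.35 as deposited beside -0.27 over all genes, and -0.08 after scaling beside -0.02, so the family stood slightly below the typical gene on both. All 23 members called lower after scaling were also called lower as deposited, and Mrpl58, Mrpl14 and Mrpl49 were called higher on both. Without E12.5 replicate 1 the count called higher after scaling was 15 instead of 9.

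The largest falls by birth were in a small group of proteins from both subunits. Mrps27, a protein specific to the mitochondrial small subunit (chr13:99344786-99415562, plus strand), stood at 30.9, 28.1 and 32.9 TPM in the E12.5 libraries, at 12.7, 14.6 and 13.8 TPM at P0, at 9.58, 8.52 and 11.8 TPM at P14 and at 8.66, 7.18 and 8.42 TPM at A6m. Every E12.5 library was above every later one, also after scaling, where the values were 25.5, 19.2 and 21.2 at E12.5 and 9.78 to 14.5 at the 3 later ages. The log2 difference at P0 was -1.10 ± 0.12 (SE; adjusted p 1.27e-05) as deposited and -0.82 ± 0.11 (adjusted p 0.000106) after scaling. Mrps22, another small subunit protein without a bacterial counterpart (chr9:98588730-98601660, minus strand), stood at 46.9, 56.6 and 44.8 TPM at E12.5, at 18.8, 22.0 and 23.6 TPM at P0 and between 15.8 and 19.9 TPM at P14 and A6m. The ages after E12.5 overlapped with each other after scaling but not with E12.5, and the difference at P0 was -1.17 ± 0.12 (SE; adjusted p 7.5e-06) as deposited and -0.88 ± 0.14 (adjusted p 0.000298) after scaling.

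Mrpl3 encodes a core protein of the large subunit near the site of peptide bond formation (chr9:105053239-105079888, plus strand). Its TPM were 60.8, 52.7 and 57.5 at E12.5, 29.2, 29.5 and 28.2 at P0, 22.5, 21.2 and 25.9 at P14 and 20.4, 20.1 and 20.5 at A6m. It was high in all 3 E12.5 libraries and tight within each later age, and it fell by birth by 0.95 ± 0.08 (SE; adjusted p 1.95e-06) on the log2 scale as deposited and by 0.67 ± 0.11 (adjusted p 0.000364) after scaling. Mrpl47, a large subunit protein with a bacterial counterpart, fell by 0.96 ± 0.08 (SE; adjusted p 2.37e-06) as deposited and by 0.68 ± 0.12 (adjusted p 0.000675) after scaling, from 27.0 to 30.4 TPM at E12.5 to 13.5 to 15.1 TPM at P0. Its exons overlap those of Actl6a and Ndufb5, and 25.8% of its 31-base words occur in transcripts of other genes. Actl6a went from 49.4 to 62.8 TPM at E12.5 to 22.9 to 30.9 TPM at P0, and its part in the Mrpl47 values was not tested.

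Mrps25, specific to the mitochondrial small subunit, was the only member of all 78 whose P0 libraries lay below every other library on both scales. It stood at 24.9, 27.2 and 20.3 TPM at E12.5, at 12.2, 12.1 and 14.1 TPM at P0, at 21.2, 21.7 and 18.3 TPM at P14 and at 27.6, 23.9 and 27.0 TPM at A6m. The log2 difference was -0.86 ± 0.11 (SE; adjusted p 6.34e-05) against E12.5 and a rise of 0.63 ± 0.11 (adjusted p 0.000832) from P0 to P14 as deposited. After scaling these were -0.58 ± 0.14 (adjusted p 0.00511) and 1.12 ± 0.14 (adjusted p 0.000146). Mrps25 overlaps Nr2c2 on the opposite strand and shares 68.9% of its 31-base words with other genes, mostly with Nr2c2. Nr2c2 ran the other way around birth, at 16.6 to 21.4 TPM at E12.5, 23.8 to 25.3 at P0, 13.1 to 14.3 at P14 and 13.4 to 14.6 at A6m, and whether the counting used strand is not given in the sources used here.

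The members that rose by birth were fewer, and as deposited they rose less. After scaling the rise of Mrpl58 (0.70) exceeded the falls of Mrpl47 (-0.68), Mrpl3 (-0.67) and Mrps25 (-0.58). It stayed below those of Mrps22 (-0.88) and Mrps27 (-0.82). Mrpl58 encodes a peptidyl-tRNA hydrolase that rescues stalled ribosomes and is also a fixed part of the large subunit (chr11:115403752-115412674, plus strand). It stood at 116, 141 and 138 TPM at E12.5, at 163, 185 and 180 TPM at P0, at 129, 140 and 140 TPM at P14 and at 150, 153 and 147 TPM at A6m. Each P0 library was above each E12.5 library, by 0.42 ± 0.08 (SE; adjusted p 0.000912) on the log2 scale as deposited and by 0.70 ± 0.07 (adjusted p 9.88e-06) after scaling. Mrpl14, a large subunit protein with a bacterial counterpart, rose from 25.5 to 33.1 TPM to 36.6 to 40.6 TPM, by 0.39 ± 0.10 (adjusted p 0.00596) and 0.66 ± 0.13 (adjusted p 0.00131). Mrpl49, specific to mitochondria, peaked at birth. It stood at 47.7, 48.5 and 57.6 TPM at E12.5, at 62.4, 63.2 and 63.5 TPM at P0, at 39.4, 34.9 and 38.3 TPM at P14 and at 35.8, 32.6 and 34.9 TPM at A6m. All P0 libraries were above all others on both scales, and it was the only member called lower at P14 than at P0 on both, at -0.74 ± 0.08 (adjusted p 3.71e-05) as deposited and -0.23 ± 0.06 (adjusted p 0.0104) after scaling.

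**Figure D2:**
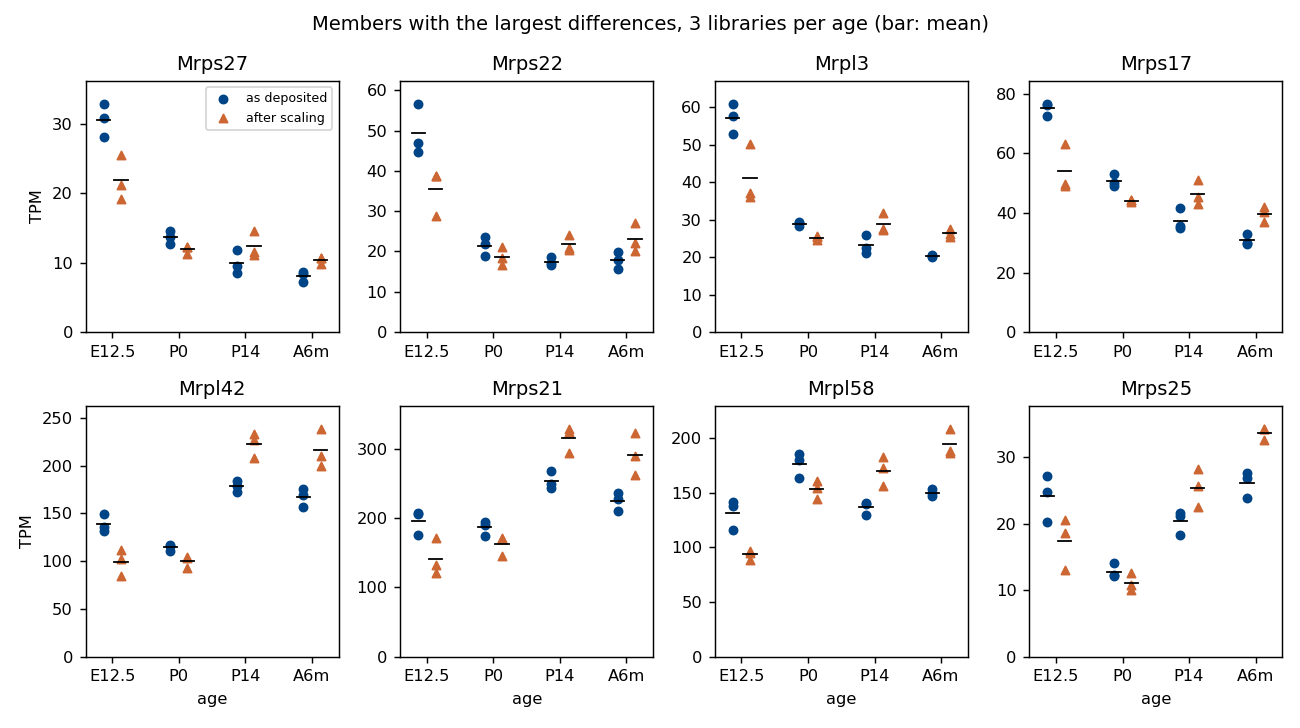
TPM of 8 members in the 3 libraries of each age, as deposited (circles) and after scaling (triangles), with a bar at the mean and an axis that starts at 0. Mrps27, Mrps22, Mrpl3 and Mrps17 are highest at E12.5 on both scales, Mrpl42 and Mrps21 step up between P0 and P14, and Mrps25 dips at P0.

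From birth to P14 the members' median stood above that of all genes on both scales. As deposited, 4 members were called higher and 28 lower at P14 than at P0, beside 5.33% of all genes called higher and 53.5% lower. After scaling 46 were called higher and 1 lower, beside 22.7% and 19.8% of all genes. The median log2 difference of the members was -0.19 as deposited, where that of all genes was -0.41, and 0.31 after scaling, where that of all genes was 0.00. Of the members, 7 were called lower as deposited and higher after scaling. Over 5 ways of scaling, the members' median lay 0.20 to 0.31 above that of all genes, a measure that a common scaling factor changes little. Without P14 replicate 2 the deposited count of lower members was 17 instead of 28.

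Mrpl42, Mrps21, Mrps25 and Mrpl12 rose from P0 to P14 on both scales. Mrpl42 encodes a large subunit protein specific to mitochondria (chr10:95480805-95501940, minus strand) and stood at 135, 149 and 132 TPM at E12.5, at 117, 111 and 116 TPM at P0, at 172, 179 and 184 TPM at P14 and at 169, 175 and 156 TPM at A6m. Both older ages lay above both younger ages in every library, and the step at P14 was 0.63 ± 0.07 (SE; adjusted p 2.6e-05) as deposited and 1.14 ± 0.10 (adjusted p 1.31e-05) after scaling. Mrps21, the relative of a small bacterial subunit protein (chr3:95862634-95871519, minus strand), stood at 207, 176 and 205 TPM at E12.5, at 195, 175 and 190 TPM at P0, at 243, 249 and 268 TPM at P14 and at 211, 237 and 227 TPM at A6m. E12.5 and P0 overlapped, and P14 lay above every other age as deposited but overlapped A6m after scaling. The step at P14 was 0.44 ± 0.08 (adjusted p 0.000823) as deposited and 0.96 ± 0.13 (adjusted p 0.000169) after scaling. Mrpl12, whose bacterial relative forms the flexible stalk that recruits translation factors, rose from 22.9 to 26.4 TPM to 28.0 to 34.3 TPM, by 0.26 ± 0.09 (adjusted p 0.0266) and 0.76 ± 0.10 (adjusted p 0.000178). The deposited call for Mrpl12 was lost without P0 replicate 2, without P14 replicate 3 and in a fit of only the 6 libraries compared.

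Between P14 and A6m few members differed. As deposited, 0 were called higher and 3 lower, beside 8.78% and 12.1% of all genes, and at an unadjusted p under 0.05 limma gave 5 higher and 9 lower. After scaling 2 were called higher and 3 lower, beside 15.2% and 14% of all genes. The median log2 difference was -0.02 as deposited, beside -0.04 over all genes, and 0.03 after scaling, beside 0.00. Mrpl55, a large subunit protein, was the only member called on both scales, at 28.2, 27.2 and 30.5 TPM at P14 and 24.7, 19.6 and 23.7 TPM at A6m. Its log2 difference was -0.33 ± 0.09 (SE; adjusted p 0.0273) as deposited and -0.28 ± 0.09 (adjusted p 0.0453) after scaling. The scaled call was lost when any of the 6 libraries was left out (highest adjusted p 0.150), and the deposited one without P14 replicate 1, P14 replicate 3 or A6m replicate 2. The call was also lost with the replicate block (adjusted p 0.0548, and 0.0687 with scaling), when rescaled without mitochondrially encoded genes (0.0507), with only the 6 libraries (0.0569) and against a 1.5-fold difference. Mrps18a was called higher at A6m after scaling, by 0.33 ± 0.07 (adjusted p 0.00692), and stood 0.28 ± 0.10 higher (adjusted p 0.0662) as deposited.

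Over the whole span, A6m shares its libraries with the comparison to P14, and E12.5 shares its libraries with the comparison to P0. As deposited, 3 members were called higher and 57 lower at A6m than at E12.5, beside 15.2% of all genes called higher and 62.0% lower. After scaling 42 were called higher and 7 lower, beside 35.4% and 35.8% of all genes. The median log2 difference was -0.55 as deposited, beside -0.71 over all genes, and 0.28 after scaling, beside -0.01. Of the members, 21 were called lower as deposited and higher after scaling. When the total was recomputed without the mitochondrially encoded transcripts the members' median was -0.21, and without the 10 most abundant genes it was -0.08. Over the 5 ways of scaling the members' median lay 0.08 to 0.30 above that of all genes.

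**Figure D3:**
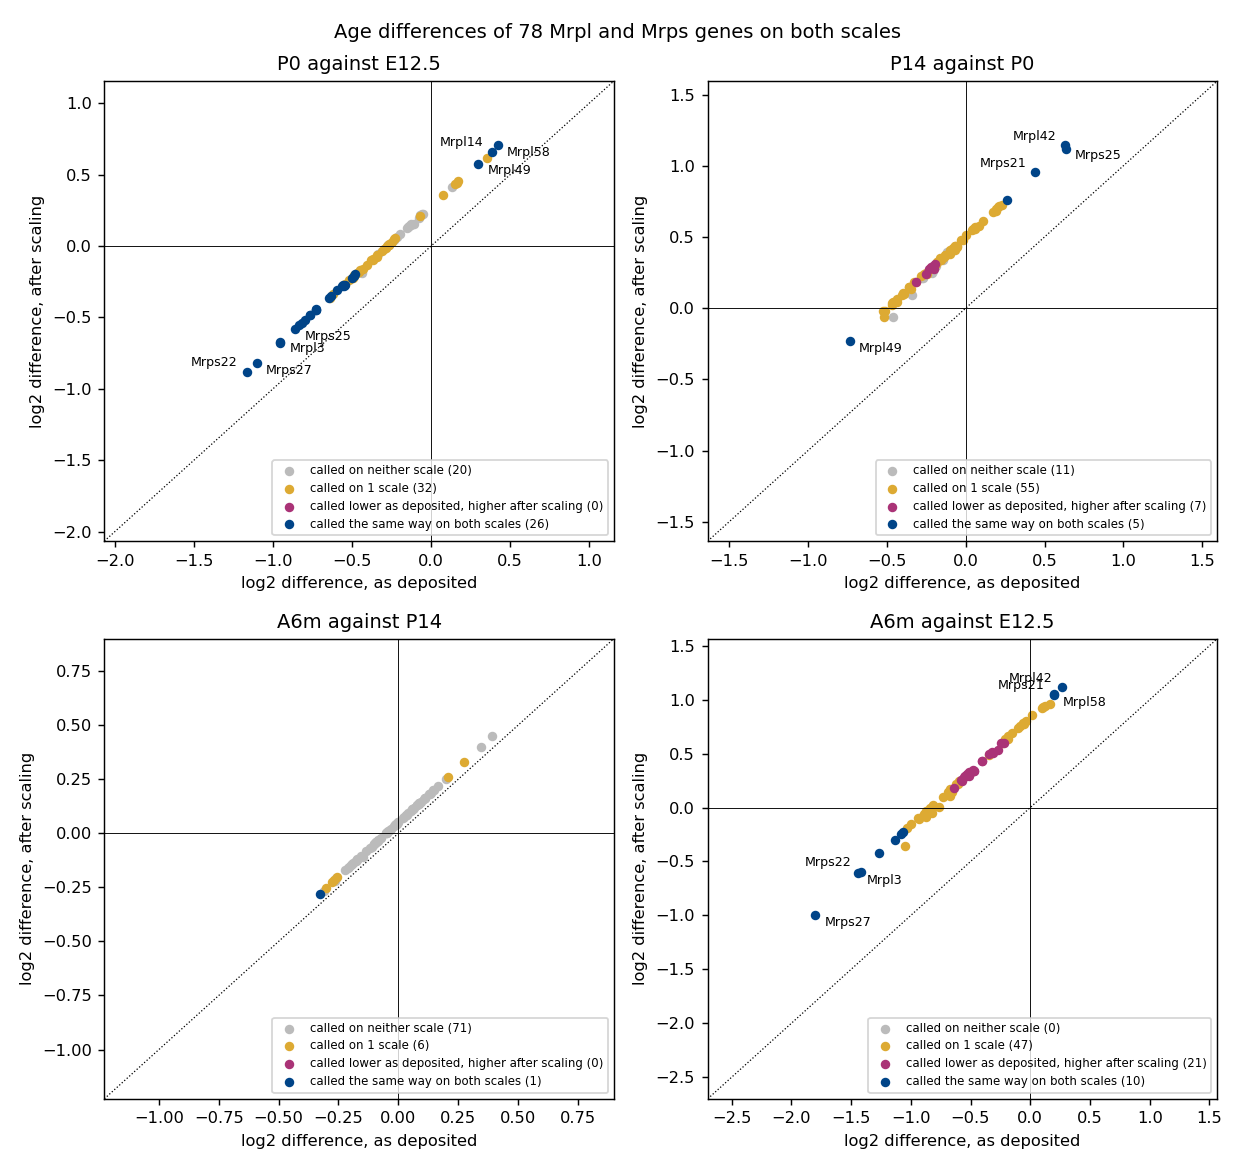
Log2 difference of each member as deposited (x axis) and after scaling (y axis) in the 4 comparisons, coloured by whether it was called on neither scale, on 1 scale, in opposite directions or in the same direction on both, with the number of members in brackets and the dotted line marking equal values. The points lie on a line shifted from the dotted one, and 10 members were called in the same direction on both scales between E12.5 and A6m.

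The 7 members that were lower at A6m than at E12.5 on both scales were Mrps27, Mrpl3, Mrps22, Mrps17, Mrpl21, Mrpl22 and Mrpl24. They were all of the members called lower after scaling, where 35.8% of all genes were called lower. Mrps27 had the largest fall of all members on both scales, -1.80 ± 0.12 (SE; adjusted p 9.57e-08) as deposited and -1.0 ± 0.11 (adjusted p 1.3e-05) after scaling, and its part of the family's summed TPM went from 0.751% ± 0.0392 (SD, n = 3) to 0.270% ± 0.0251. Mrpl3 differed by -1.44 ± 0.08 (adjusted p 2.39e-08) and -0.61 ± 0.11 (adjusted p 0.000464), and Mrps22 by -1.42 ± 0.12 (adjusted p 5.98e-07) and -0.59 ± 0.14 (adjusted p 0.00306). Mrps17, a conserved small subunit protein, stood at 76.6, 72.4 and 76.2 TPM at E12.5 and at 29.8, 29.6 and 32.8 TPM at A6m, with P0 (48.9 to 53.0 TPM) and P14 (34.8 to 41.5 TPM) in between and no overlap between ages as deposited. It differed by -1.26 ± 0.08 (adjusted p 5.19e-08) and -0.42 ± 0.10 (adjusted p 0.0023). Mrpl21, a large subunit protein with a bacterial counterpart, differed by -1.13 ± 0.07 (adjusted p 5.13e-08) and -0.30 ± 0.08 (adjusted p 0.00712). The deposited calls of these 5 held under each alternative run, and the scaled calls with each library left out in turn, but tested against a 1.5-fold difference after scaling only 1 member was called lower.

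Mrpl42, Mrps21 and Mrpl58, which are 3 of the 4 most abundant members, were higher at A6m than at E12.5 on both scales. Mrpl42 differed by 0.27 ± 0.07 (SE; adjusted p 0.00307) as deposited and 1.11 ± 0.10 (adjusted p 2.18e-06) after scaling, Mrps21 by 0.20 ± 0.08 (adjusted p 0.0402) and 1.05 ± 0.13 (adjusted p 1.91e-05), and Mrpl58 by 0.19 ± 0.08 (adjusted p 0.0467) and 1.04 ± 0.07 (adjusted p 1.91e-07). The deposited calls of Mrps21 and Mrpl58 were close to the threshold and were lost in the fit of 6 libraries, against a 1.5-fold difference, without a filter, and without A6m replicate 2 or A6m replicate 3. That of Mrps21 was also lost without E12.5 replicate 2, and that of Mrpl58 without E12.5 replicate 1 or A6m replicate 1. The part of Mrps21 in the family's summed TPM, which no scaling changes, went from 4.81% ± 0.401 (SD, n = 3) at E12.5 to 7.51% ± 0.480 at A6m, that of Mrpl42 from 3.41% ± 0.342 to 5.59% ± 0.485 and that of Mrpl58 from 3.23% ± 0.318 to 5.02% ± 0.241, and no library of 1 age reached the range of the other.

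The promoters of the 3 members with the largest lasting falls and of the 3 that rose over the whole span are shown because these sets moved in opposite directions on both scales. Each is the window from 250 bases before to 50 bases after a gene start in RefSeq (GRCm38.p6), 5′ to 3′ on the gene's strand, with capitals marking matches, on either strand, to the motifs GCGCNTGCG (nuclear respiratory factor NRF1), CCGGAAG (GABP and other ETS factors) and AAGATGGC (YY1). NRF1, GABP and YY1 are known regulators of nuclear genes for mitochondrial proteins.
Mrps27: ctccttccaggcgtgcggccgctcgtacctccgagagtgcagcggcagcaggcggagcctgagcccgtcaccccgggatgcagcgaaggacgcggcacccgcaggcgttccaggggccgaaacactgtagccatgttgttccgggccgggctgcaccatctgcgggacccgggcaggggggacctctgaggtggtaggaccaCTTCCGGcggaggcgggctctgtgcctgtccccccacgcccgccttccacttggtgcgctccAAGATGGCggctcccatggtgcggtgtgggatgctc
Mrps22: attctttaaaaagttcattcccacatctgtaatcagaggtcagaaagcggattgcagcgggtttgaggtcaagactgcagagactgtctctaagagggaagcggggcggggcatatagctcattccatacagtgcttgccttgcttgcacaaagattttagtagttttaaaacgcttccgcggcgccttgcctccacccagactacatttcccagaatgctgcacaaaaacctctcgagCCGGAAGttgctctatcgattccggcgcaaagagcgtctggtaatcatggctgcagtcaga
Mrpl3: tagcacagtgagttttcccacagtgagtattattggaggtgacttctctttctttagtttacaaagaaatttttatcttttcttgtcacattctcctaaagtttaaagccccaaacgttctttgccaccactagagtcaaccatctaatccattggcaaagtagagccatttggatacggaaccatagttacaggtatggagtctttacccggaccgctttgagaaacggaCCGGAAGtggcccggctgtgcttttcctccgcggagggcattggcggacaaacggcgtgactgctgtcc
Mrpl42: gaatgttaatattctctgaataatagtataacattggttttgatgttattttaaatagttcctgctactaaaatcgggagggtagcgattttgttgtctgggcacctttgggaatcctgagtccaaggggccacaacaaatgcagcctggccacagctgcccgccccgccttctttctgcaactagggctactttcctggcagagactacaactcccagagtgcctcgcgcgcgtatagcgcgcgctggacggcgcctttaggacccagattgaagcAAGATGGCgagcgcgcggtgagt
Mrps21: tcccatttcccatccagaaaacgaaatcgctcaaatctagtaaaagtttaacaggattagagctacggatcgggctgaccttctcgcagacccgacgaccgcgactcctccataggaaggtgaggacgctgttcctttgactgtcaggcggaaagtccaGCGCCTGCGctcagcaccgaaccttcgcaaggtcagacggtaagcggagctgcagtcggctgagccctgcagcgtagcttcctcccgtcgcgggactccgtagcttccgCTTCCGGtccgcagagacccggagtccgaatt
Mrpl58: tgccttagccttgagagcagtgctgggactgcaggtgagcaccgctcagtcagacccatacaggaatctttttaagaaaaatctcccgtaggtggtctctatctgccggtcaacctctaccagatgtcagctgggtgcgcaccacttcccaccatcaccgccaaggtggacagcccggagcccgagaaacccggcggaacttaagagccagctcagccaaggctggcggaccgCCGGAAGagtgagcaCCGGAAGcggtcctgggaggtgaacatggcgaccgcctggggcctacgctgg
The windows lie at chr13:99344536-99344835 (Mrps27, plus strand), chr9:98601630-98601929 (Mrps22, minus strand), chr9:105053018-105053317 (Mrpl3, plus strand), chr10:95501900-95502199 (Mrpl42, minus strand), chr3:95871465-95871764 (Mrps21, minus strand) and chr11:115403502-115403801 (Mrpl58, plus strand). Mrps27 holds an ETS and a YY1 match, Mrps22 and Mrpl3 an ETS match each, Mrpl42 a YY1 match, Mrps21 an NRF1 and an ETS match and Mrpl58 2 ETS matches. Matches to the ETS motif thus occurred in both sets.

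Across the family, 69 of 78 members had a RefSeq promoter window, 75 windows in all. An NRF1 match was found in 24.0% of these windows, against 12% of the 14703 windows of tested genes and 6.31% of all 32851 windows in the table. An ETS match was found in 34.7%, against 15.8% and 8.86%, and a YY1 match in 16.0%, against 3.92% and 2.75%. Any of the 3 was found in 58.7% of member windows, against 27.8% and 16.0%. The median GC content was 58.7% in member windows and 60.3% in those of tested genes. Median positions of the matches in member windows, counted in bases from the start, were -17 for ETS, -42.5 for NRF1 and 15 for YY1. These are matches of letters, with no measurement of binding.

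Of 9 listed regulators of mitochondrial biogenesis, 2 were called higher and 6 lower at A6m than at E12.5 as deposited, and 3 higher and 4 lower after scaling. Of all genes, 15.2% were called higher and 62.0% lower as deposited, and 35.4% and 35.8% after scaling. Ppargc1a, a coactivator of mitochondrial biogenesis, rose from 3.99, 7.80 and 6.96 TPM at E12.5 to 26.4, 24.7 and 24.9 TPM at P0, by 1.90 on the log2 scale as deposited (adjusted p 3.07e-06) and 2.12 after scaling (adjusted p 1.14e-07). Nrf1, the gene of the factor behind the first motif, fell from 21.1 to 24.5 TPM at E12.5 to 6.18 to 7.42 TPM at A6m, by 1.65 as deposited (adjusted p 1.5e-07) and by 0.87 after scaling (adjusted p 4.96e-06). Gabpa, a subunit of GABP, fell by 0.89 as deposited (adjusted p 2.98e-05) and differed by -0.06 after scaling (adjusted p 0.569). Yy1 fell from 39.1 to 57.1 TPM at E12.5 to 17.9 to 19.5 TPM at A6m, by 1.2 as deposited (adjusted p 7.73e-06) and by 0.37 after scaling (adjusted p 0.0271). Myc, a growth regulator, fell from 7.10 to 10.9 TPM at E12.5 to 0.163 to 0.266 TPM at A6m, by 2.97 and by 2.47 (adjusted p 1.02e-08 and 2.35e-08).

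All 4 role groups held members called higher at A6m than at E12.5 after scaling. Between E12.5 and A6m after scaling, 9 of 17 conserved and 7 of 9 specific small subunit members were called higher, with median log2 differences of 0.31 and 0.49, and 14 of 31 conserved and 11 of 20 specific large subunit members, with medians of 0.15 and 0.26. In the same order 1, 2, 4 and 0 members were called lower, and of all genes 35.4% were called higher and 35.8% lower. The same groups had medians of -0.51, -0.34, -0.67 and -0.58 as deposited. The ratio of summed small to summed large subunit TPM, which does not depend on scaling, was 0.521 to 0.536 at E12.5, 0.549 to 0.556 at P0, 0.603 to 0.617 at P14 and 0.567 to 0.609 at A6m. It was lowest in the E12.5 libraries, and the P14 and A6m ranges overlapped. Mrps21 alone made up 7.93% to 8.38% of the family's TPM at P14.

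Members at known functional sites are given whatever their change. At the stalk base, Mrpl10 stood at 30.7 to 33.9 TPM at E12.5 and 18.6 to 21.3 TPM at A6m, a log2 difference of -0.67 (adjusted p 1.11e-05) as deposited and 0.15 (adjusted p 0.0585) after scaling, and Mrpl11 differed by -0.68 (adjusted p 7.58e-06) and 0.11 (adjusted p 0.242). The stalk protein Mrpl12 was called lower as deposited and higher after scaling over the same span, at -0.22 (adjusted p 0.0389) and 0.60 (adjusted p 0.000258). Mrps12, at the decoding centre, stood at 26 to 31.6 TPM at E12.5, 21.9 to 23.9 at P0, 25.2 to 28.3 at P14 and 29.6 to 30.8 at A6m. As deposited its P0 libraries were below all others, with a call against E12.5 (-0.29, adjusted p 0.0105) that was absent after scaling (-0.01, adjusted p 0.953). It differed over the whole span by 0.10 (adjusted p 0.271) as deposited and 0.93 (adjusted p 6.29e-05) after scaling. Mrpl44, a large subunit protein with a ribonuclease III-like fold, differed by -0.85 (adjusted p 3.51e-05) and -0.05 (adjusted p 0.756). The conserved small subunit protein Mrps16 differed by -0.47 (adjusted p 0.00176) and 0.34 (adjusted p 0.0176), and the large subunit protein Mrpl36 by -0.23 (adjusted p 0.0585) and 0.60 (adjusted p 0.00111).

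Mrps34, specific to the small subunit, stood at 22.1 to 27.2 TPM at E12.5 and 22.2 to 26 TPM at A6m and differed by -0.05 (adjusted p 0.666) as deposited and 0.77 (adjusted p 2.96e-06) after scaling. It shares 73.8% of its 31-base words with other genes, mainly its neighbour Nme3 and the opposite-strand gene Mapk8ip3. Mrps36, the member that is not a ribosome subunit, stood at 56.5, 64.7 and 62.2 TPM at E12.5 and 67.2, 58.4 and 59.5 TPM at A6m, with overlap. It differed by 0.01 (adjusted p 0.926) as deposited and 0.85 (adjusted p 3.13e-05) after scaling, and leaving it out of the family changed no count by more than 1.

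The 3 Mrps18 paralogues, relatives of 1 bacterial small subunit protein, followed different courses. Mrps18c stood at 90.0, 78.2 and 102 TPM at E12.5, at 51.1, 54.1 and 55.8 TPM at P0, at 44.1, 36.2 and 45 TPM at P14 and at 38.0, 44.5 and 47.4 TPM at A6m. Mrps18a, the paralogue of the large subunit, stood at 41.6, 49.0 and 46.4 TPM at E12.5, at 37.4, 46.3 and 40.7 TPM at P0, at 36.5, 31.9 and 37.6 TPM at P14 and at 42.6, 41.2 and 45 TPM at A6m. Mrps18c thus fell clear of its E12.5 range by birth (-0.73 ± 0.12, SE, adjusted p 0.00026, as deposited, and -0.44 ± 0.13, adjusted p 0.0112, after scaling). Over the same step Mrps18a differed by -0.14 ± 0.10 (adjusted p 0.232) as deposited and 0.14 ± 0.07 (adjusted p 0.125) after scaling. Between E12.5 and A6m the Mrps18a libraries overlapped as deposited (-0.08, adjusted p 0.440) and did not after scaling (0.75, adjusted p 3.72e-06). The ratio of Mrps18a to Mrps18c, free of scaling, was 0.456 to 0.626 at E12.5, 0.729 to 0.855 at P0, 0.828 to 0.882 at P14 and 0.925 to 1.12 at A6m, each A6m library above each earlier one. Mrps18b was the least abundant of the 3 at 12.1 to 23.0 TPM, and its P14 replicate 3 stood at 20.4 TPM against 12.8 and 12.1 TPM in the other P14 libraries. Mrps18c shares 34.5% and Mrps18b 31.6% of their 31-base words with other genes.

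Set beside the other parts of the machinery, the members lost ground to the genes of the respiratory chain and gained on those of the cytosolic ribosome. Transcripts of the 13 mitochondrially encoded proteins summed to 27.8 to 43.7 times the members' TPM at E12.5, 59.0 to 66.2 times at P0, 86.2 to 108 times at P14 and 98.9 to 113 times at A6m. Nuclear oxidative phosphorylation genes summed to 3.92 to 4.33 times the members' TPM at E12.5, 6.76 to 7.10 times at P0, 8.04 to 8.19 times at P14 and 7.79 to 8.03 times at A6m. Cytosolic ribosomal protein genes summed to 17.0 to 18.9 times at E12.5, 13.6 to 14.8 times at P0, 9.04 to 9.59 times at P14 and 8.71 to 9.06 times at A6m. The E12.5 libraries were apart from all later ones in all 3 ratios.

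**Figure D4:**
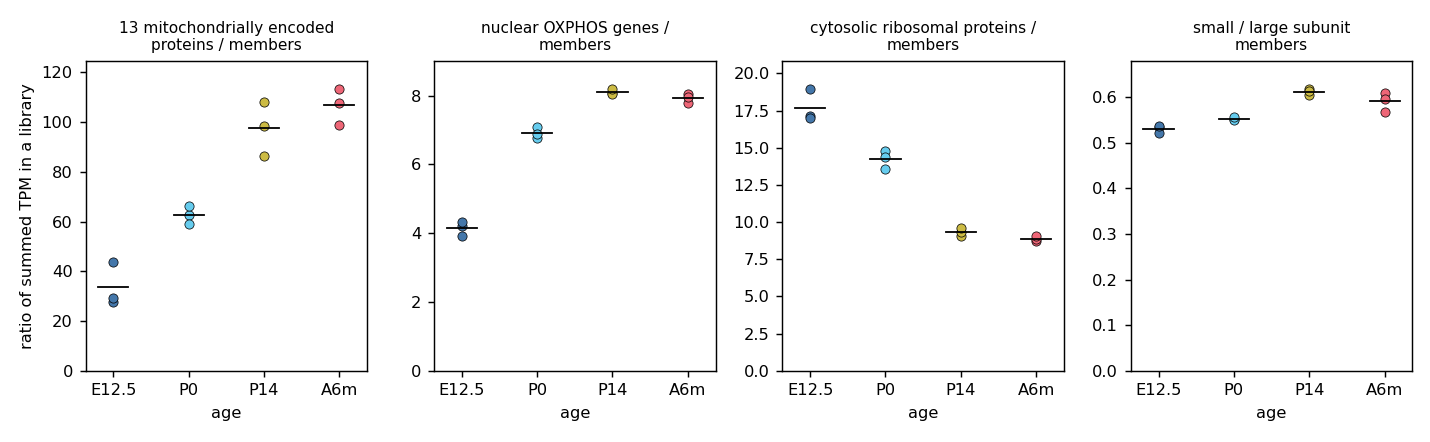
Ratio of summed TPM in each library (points, 3 per age, bar at the mean, axis from 0) for mitochondrially encoded proteins, nuclear oxidative phosphorylation (OXPHOS) genes and cytosolic ribosomal protein genes over the members, and for small over large subunit members. The first ratio goes from 27.8 to 43.7 at E12.5 up to 98.9 to 113 at A6m, while the cytosolic ratio goes down from 17.0 to 18.9 to 8.71 to 9.06.

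Gene by gene between E12.5 and A6m, the median log2 difference of 80 tested oxidative phosphorylation genes was 0.39 as deposited and 1.24 after scaling, with 51 and 78 called higher. That of the 13 mitochondrially encoded proteins was 1.19 and 2.05, with 11 and 13 called higher, and that of 80 tested cytosolic ribosomal protein genes was -1.49 and -0.64, with 78 and 65 called lower. The members' medians of -0.55 and 0.28 lay between these families on both scales. Over all genes tested the median was -0.71 as deposited and -0.01 after scaling. Of all genes, 15.2% and 35.4% were called higher and 62.0% and 35.8% lower. The members and the other families are compared over the same libraries, and no test was made of the families against each other.

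Other genes of mitochondrial translation were closer to the members. The 5 mitochondrial ribosome subunits with other names had a median of -0.82 as deposited and 0.03 after scaling, and differed among themselves. Ptcd3, a small subunit protein, fell from 72.2, 91.9 and 86.2 TPM at E12.5 to 32.9, 31.5 and 32.8 TPM at A6m, by 1.33 as deposited (adjusted p 6.31e-08) and by 0.49 after scaling (adjusted p 9.1e-06). Aurkaip1, also a small subunit protein, rose from 45.1, 42.5 and 42.0 TPM to 48.3, 50.2 and 56.7 TPM, by 0.25 (adjusted p 0.0149) and 1.09 (adjusted p 7.29e-06). Among 23 genes of ribosome assembly and rRNA modification the medians were -0.61 and 0.17, among 14 translation factors -0.68 and 0.11, among 17 mitochondrial aminoacyl-tRNA synthetases -0.67 and 0.04, and among 16 genes of mitochondrial transcription and RNA processing -0.54 and 0.25. After scaling 10 of 23, 4 of 14, 4 of 17 and 7 of 16 of these were called higher, against 42 of 78 members and 35.4% of all genes. Tufm, the elongation factor that brings tRNAs to the ribosome, fell by 0.94 as deposited (adjusted p 3.41e-07) and differed by -0.11 after scaling (adjusted p 0.271). Tfam, which packages mitochondrial DNA and takes part in its transcription, differed by -0.44 (adjusted p 0.00139) and 0.40 (adjusted p 0.00116). Polrmt, the mitochondrial RNA polymerase, differed by -0.50 (adjusted p 0.0695) and 0.26 (adjusted p 0.357).

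Shared sequence limits single members more than the family. A median of 6.5% of a member's 31-base words occurred in transcripts of other GENCODE genes on either strand, 13 of 78 members exceeded 20% and 3 exceeded 50% (Mrpl53, Mrps34 and Mrps25). Exons of 8 members overlap another gene on the same strand and those of 28 on the opposite strand. Mrps27 shares 18.9% with the antisense gene 6430562O15Rik, which stood at 0.0523 to 0.639 TPM, far below Mrps27 at every age. Mrpl58 shares 0 such words. Of the genes sharing words with Mrps21, only the 3 main ones, all pseudogenes, were looked up. They were listed at 0 to 7.29 TPM, against 175 to 268 TPM for Mrps21.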

How the data were processed

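The 12 mRNA libraries of dissected choroid plexus, 3 per age, were analysed. The deposited values are TPM per gene; per the submitters' processing notes kallisto and GRCm38 were used, while its version, the annotation, the strand setting and how transcripts were summed to genes are not given in the sources used here. Another 7 columns of the table could not be tied to a sample here and were not used. TPM keeps no counts, so depth is unknown and no count model was run.

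The deposited TPM were analysed as log2(TPM + 1) with limma 3.58.1 (R 4.3.3; eBayes with trend), with 4 age means over 12 libraries and 8 residual degrees of freedom. The 17422 genes with TPM of at least 1 in at least 3 libraries were tested, with Benjamini-Hochberg adjustment over all of them and calls at an adjusted p under 0.05. Log2 differences are on this scale and understate changes of low genes. The same fit was run after median-of-ratios scaling over 19075 genes above 0 in all 12 libraries. The script was tested on simulated data.

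Members named per comparison were up to 5 rises and 5 falls, largest by deposited log2 difference, called in 1 direction on both scales with no overlap of libraries. To these were added the 3 highest and 3 lowest members by mean TPM and members listed for a known role. Mrpl22, Mrpl24 and Mrpl53 are outside the rule and were named, after their values were seen, to complete a count. Members, gene lists and markers were chosen with earlier results of these data known. Shared sequence was measured as 31-base words in GENCODE M21 transcripts, and promoters were read from RefSeq (GRCm38.p6). Figures used Python 3.11.15, matplotlib 3.10.9, pandas 2.3.3 and numpy 2.4.6. Alternatives were pseudocounts, filters, other scalings, a replicate block, only the 6 libraries compared, a test against 1.5-fold (limma treat) and each library left out.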

Additional observations from a re-analysis of the deposited data

How the results depend on the processing

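Counts of members are given as higher, then lower. For P0 against E12.5 the deposited 3 and 49 became 9 and 23 after median-of-ratios scaling, 9 and 30 after quantile normalization, 14 and 26 when rescaled without the 10 most abundant genes, 8 higher when rescaled without mitochondrially encoded genes, 9 and 23 with the replicate block and scaling together, and 0 and 5 under limma treat against 1.5-fold (0 and 7 at an unadjusted p under 0.05). For P14 against P0 the 4 and 28 became, in that order, 46 and 1, 31 and 2, 14 and 8, 11 and 9, 45 and 1, and 0 and 0 (unadjusted 0 and 1). For A6m against P14 the 0 and 3 became 2 higher, 2 and 5, 2 and 8, 3 higher, 2 and 1, and 0 lower (unadjusted 0), with 1 higher at a mean of at least 5 TPM and 2 higher with only the 6 libraries. For A6m against E12.5 the 3 and 57 became 42 and 7, 25 and 14, 20 and 30, 13 higher, 39 and 6, and 0 and 20 (unadjusted 0 and 21), with 1 higher without a filter and 1 higher with only the 6 libraries. After scaling, limma treat gave 0 and 0 (unadjusted 0 and 2), 2 and 0 (unadjusted 3 and 0), 0 and 0 (unadjusted 0 and 0), and 8 and 1 in the same order of comparisons.

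With 1 library left out in turn, lower members at P14 against P0 numbered 17 to 26 (17 without P14 replicate 2), lower members at A6m against P14 0 to 3 (0 without P14 replicate 3 or A6m replicate 2), and higher members at A6m against E12.5 1 to 4 (1 without A6m replicate 2 or 3). After scaling, these fits, chosen after seeing the data, gave 8 to 15 higher at P0 against E12.5 (15 without E12.5 replicate 1), and 1 to 4 higher and 0 to 2 lower at A6m against P14 (0 lower without P14 replicate 2, A6m replicate 1 or A6m replicate 3).

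Replicate numbers are shared between ages, but correlations of the deviations of same-numbered libraries, over all genes tested, were -0.06 to 0.07. No pairing by number was seen, though one that touches only some genes would not show in these values. The replicate block alone gave 3 and 50, 4 and 25, 0 and 4, and 3 and 57 as deposited.

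Of 73 log2 differences of single members, 14 were reversed after median-of-ratios scaling and 0 in the 438 fits without 1 library. Reversed means that a called difference took the opposite sign, or that an uncalled one was called in the opposite direction. Sign changes of differences not called in either fit were not counted. From P14 against P0 the values after median-of-ratios scaling, with or without the block, were 0.10 for Mrpl10, 0.27 for Mrpl11, 0.18 for Mrpl3, 0.28 for Mrps18a, 0.15 for Mrps18c and 0.37 for Mrps34, and after quantile normalization 0.029 for Mrpl10, 0.26 for Mrpl11, 0.082 for Mrpl3 and 0.27 for Mrps34. For A6m against E12.5 they were 0.15 for Mrpl10, 0.11 for Mrpl11, 0.60 for Mrpl12, 0.60 for Mrpl36, 0.34 for Mrps16, 0.75 for Mrps18a, 0.30 for Mrps18b and 0.77 for Mrps34, and after quantile normalization 0.11 for Mrpl11, 0.43 for Mrpl12, 0.40 for Mrpl36, 0.24 for Mrps16, 0.49 for Mrps18a, 0.21 for Mrps18b and 0.63 for Mrps34. Without the 10 most abundant genes Mrpl12 was at 0.25, Mrpl36 at 0.24, Mrps18a at 0.39 and Mrps34 at 0.42, and without mitochondrially encoded genes Mrpl12 was at 0.12, Mrps18a at 0.26 and Mrps34 at 0.29. The scalings differ only in what they hold constant between libraries, and which is closer to RNA per cell was not tested. Depth is unknown and limits low members such as Mrpl23 by an amount that cannot be given.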
